A study of Mus musculus with 22 samples.

Results

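The late lesion was compared with the acute lesion after laser burns to the mouse fundus. The comparison set 4 wild-type libraries from day 14 against 4 from day 3, chosen by their labels, and made up 8 of the 22 libraries of the series. All were bulk RNA sequencing of the retina and choroid of adult C57BL/6J mice, extracted as a complex. Laser-induced choroidal neovascularisation (CNV) is the growth of choroidal vessels through a burn in the membrane under the retina, and it is used as a model of wet macular degeneration. The laser was set to 532 nm, 200 mW, 0.150 s and a 100 μm spot, per the labels' protocols, and the labels name no mutation and no drug in either group. The same fit held 4 control libraries without CNV and 4 from day 7, which serve here as reference. Control replicate 4 is titled as without CNV while its treatment tag names the laser, and it was kept as control. The treatment protocol mentions 6-8 mice and no source ties a library to its own mouse, so p-values measure the spread between these libraries, which may in part be technical.

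A laser burn kills photoreceptors and pigment epithelium at the spot. Stressed photoreceptors signal to Muller glia, which switch on the gp130 and STAT3 pathway and become reactive. Resident microglia and blood monocytes gather at the spot, clear debris and release factors that act on vessels and fibroblasts. In the later phase the inflammatory cells recede, the vessels mature or regress, and a scar of matrix remains.

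Of 54532 gene rows, 19489 had no count in any wild-type library and 18657 passed the filter on low counts. The 8 libraries held 15055478 to 16848254 counts each. Rod, cone, bipolar, Muller, pigment epithelial and endothelial markers (Arr3, Grm6, Glul, Rpe65 and Cdh5 among them) passed that filter. Markers of lymphoid cells and neutrophils were scarce: over the 8 libraries Ncr1 of natural killer (NK) cells had 2 counts, the neutrophil marker Ly6g 5, Cd3e of T cells 28 and Cd79a of B cells 54, and none of these was tested. Day 14 replicate 1 stood apart from the other libraries. Its lens list, 21 genes of crystallins and other lens proteins, took 13.3% of counts, against 2.28%, 0.0762% and 1.38% in day 14 replicates 2 to 4 and 3.10%, 5.78%, 3.22% and 5.32% in the day 3 libraries. Its rod list took 1.76% of counts, against 6.95%, 7.49% and 7.63% in its group and 5.89%, 5.53%, 3.55% and 5.85% at day 3. In replicates 2 to 4 of day 14 the lens share was below that of each day 3 library. The cornea and conjunctiva list took 1.39%, 0.942%, 3.43% and 0.490% at day 3, highest in replicate 3, and 1.75%, 0.601%, 1.24% and 0.629% at day 14. Every count below is therefore given with and without day 14 replicate 1. Further fits added the scores of both lists as covariates or took their genes out before scaling. Without replicate 1 the lens share does not overlap between the compared groups, so these fits cannot tell lens RNA and day after laser apart. Taking out the listed genes also leaves any other RNA of those tissues in place. With the genes out, edgeR called no gene with all libraries (1241 at an unadjusted p under 0.05) and 1322 without replicate 1.

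**Figure D1:**
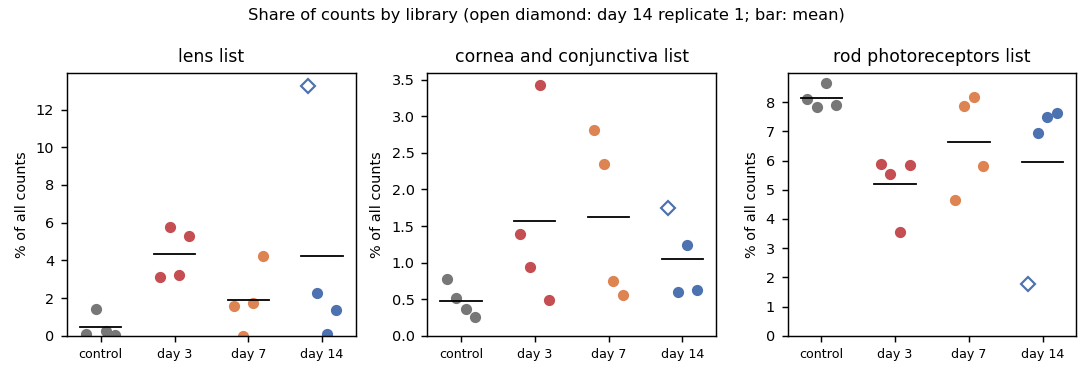
Share of all counts (%, vertical axis) taken by the lens list, the cornea and conjunctiva list and the rod photoreceptor list in each wild-type library, by group. Day 14 replicate 1 (open diamond) is highest for lens at 13.3% and lowest for rods at 1.76%, and bars mark means of 4 libraries.

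With all libraries, 1 of 18657 tested genes passed an adjusted p of 0.05 in edgeR's quasi-likelihood test, 0.00536% of them, and it was lower at day 14. An unadjusted p under 0.05 was reached by 1263 genes, 621 higher and 642 lower. Levels in CPM (counts scaled to the library total) did not overlap between the 4 day 14 and the 4 day 3 libraries for 261 genes that were higher (1.4% of those tested) and 271 that were lower (1.45%). Without day 14 replicate 1 the same fit called 1290 of 18919 genes (6.82%), 586 higher (3.1%) and 704 lower (3.72%). Of these, 100 were higher and 380 lower by at least 2-fold. The called falls were thus larger than the called rises. DESeq2 called 115 genes with all libraries and 2371 without replicate 1, with 1274 of the 1290 among the latter.

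The count of calls also moved with single libraries. With all others kept, leaving out day 3 replicate 3 gave 13 called genes, all lower. Without day 14 replicate 1, leaving out a further library gave 116 called genes for day 14 replicate 4, 307 for day 14 replicate 3, 525 for day 3 replicate 4, 576 for day 3 replicate 3 and 855 for day 14 replicate 2. A fit to the 7 compared libraries alone called 124. Leaving out day 3 replicate 1 gave 1128, 565 higher and 563 lower, and leaving out day 3 replicate 2 gave 1436. With library totals in place of TMM the balance turned, with 676 called higher and 595 lower, against 586 and 704.

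**Figure D2:**
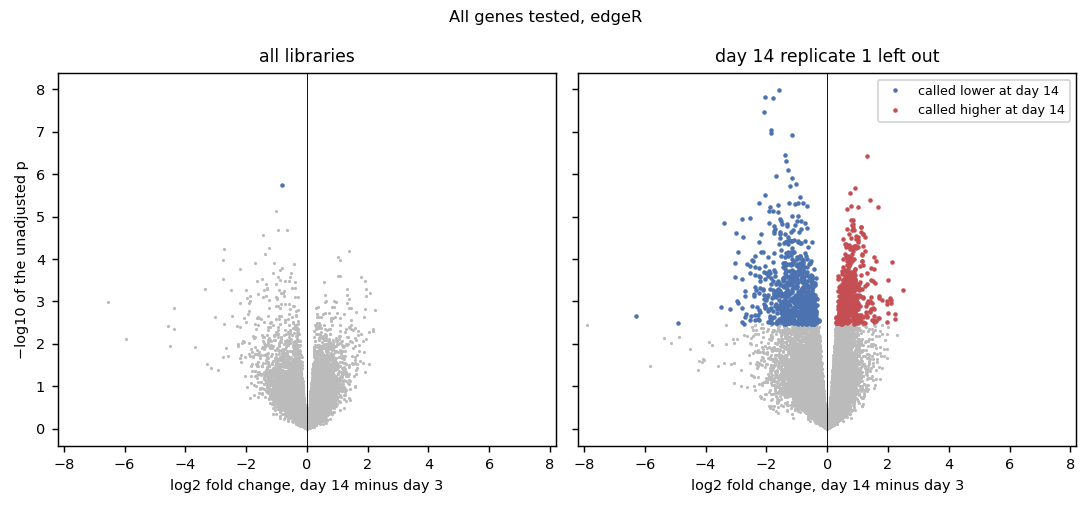
Log2 fold change from day 3 to day 14 (horizontal axis) against −log10 of the unadjusted p (vertical axis) for every tested gene, with all libraries (left) and without day 14 replicate 1 (right). The left panel holds 1 called gene and the right panel 704 called lower and 586 called higher.

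For most of these genes replicate 1 lay on the side of the day 3 libraries or past them. Of the 701 called falls that both fits tested, its CPM was above all 4 day 3 libraries for 424, within their range for 202 and below all of them for 75. Of the 585 called rises it was below all 4 day 3 libraries for 455, within their range for 81 and above all of them for 49. Among the 1286 genes, 83 changed sign between the fits, each called lower without replicate 1 and above 0 with it. The 83 include Sparc, whose values are given with the matrix genes.

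**Figure D3:**
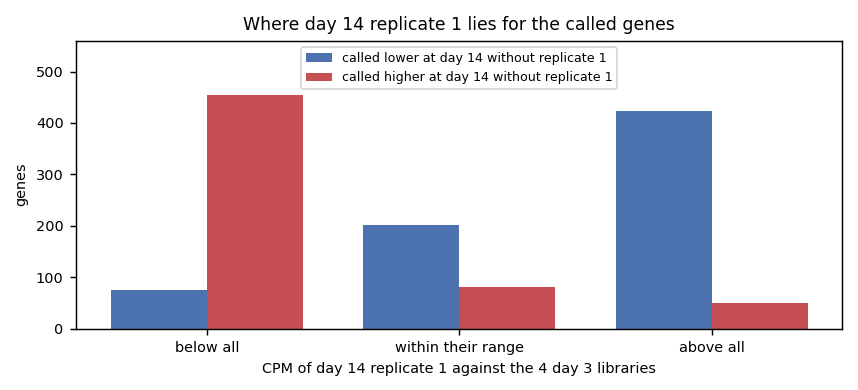
Number of genes (vertical axis) called lower or higher at day 14 without replicate 1, by where the CPM of that replicate lies against the 4 day 3 libraries. For 424 called falls it lies above all day 3 libraries and for 455 called rises below all of them.

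The gene called in both fits was Tnip2 (chr5:34496087-34513991, minus strand, mm10), which encodes a partner of the ubiquitin editor A20 that restrains NF-kB signalling. It stood at 52.9, 64.6, 48.5 and 63.4 CPM in day 3 replicates 1 to 4 and at 32.7, 35, 29.5 and 34.1 CPM in day 14 replicates 1 to 4. All day 14 libraries lay below all day 3 libraries, and replicate 1 lay inside its group. With all libraries Tnip2 fell by 0.80 on the log2 scale (SE 0.11, adjusted p = 0.0333), and without replicate 1 by 0.80 (SE 0.12, adjusted p = 0.00363). The mean was 39.1 ± 1.25 CPM in control and 34.7 ± 3.37 at day 7 (mean ± SD, n = 4). Day 3 held the highest values, and the day 7 mean lay within the range of the day 14 libraries. Of the 8 fits that left out 1 of the compared libraries, Tnip2 was called in 2, those without day 3 replicate 3 and without day 14 replicate 1, and in the other 6 edgeR called no gene, with 904 to 1418 at an unadjusted p under 0.05.

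The DNA before this gene can be set beside that of Socs3, the feedback inhibitor of STAT3, and Gfap, the filament of reactive glia, which both appear below. Each window is shown from 250 bases before the annotated start to 30 after it, on the gene's strand, from RefSeq on GRCm38.p6 (mm10). Capitals mark TTCNNNGAA, the core that STAT proteins bind, which reads the same on both strands and is the only motif that was searched. The windows are chr5:34513950-34514229 for Tnip2, chr11:117969337-117969616 for Socs3 and chr11:102897171-102897450 for Gfap, all on the minus strand.
Tnip2: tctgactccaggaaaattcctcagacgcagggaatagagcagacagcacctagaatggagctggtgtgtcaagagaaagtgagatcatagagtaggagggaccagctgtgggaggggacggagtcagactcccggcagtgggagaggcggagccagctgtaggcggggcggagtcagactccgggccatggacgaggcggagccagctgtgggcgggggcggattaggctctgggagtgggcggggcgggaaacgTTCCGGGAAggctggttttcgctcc
Socs3: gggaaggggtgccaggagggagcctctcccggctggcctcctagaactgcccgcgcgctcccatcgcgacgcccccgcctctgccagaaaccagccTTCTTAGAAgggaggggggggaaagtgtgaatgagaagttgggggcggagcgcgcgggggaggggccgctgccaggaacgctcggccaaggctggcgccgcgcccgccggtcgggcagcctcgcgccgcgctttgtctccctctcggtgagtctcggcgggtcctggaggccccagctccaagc
Gfap: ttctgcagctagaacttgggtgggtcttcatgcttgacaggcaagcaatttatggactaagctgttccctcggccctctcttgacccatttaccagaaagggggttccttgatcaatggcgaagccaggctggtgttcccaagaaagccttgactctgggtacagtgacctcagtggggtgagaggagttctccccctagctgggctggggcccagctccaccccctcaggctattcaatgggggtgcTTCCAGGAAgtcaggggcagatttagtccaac
The match began 5 bases after the start in Tnip2, 154 bases before it in Socs3 and 2 bases before it in Gfap, counting the start as 0. Of the 38 genes in the photoreceptor stress and gliosis lists, 29 had a window, and 6 of these held the motif in 300 bases: Bdnf, Emp1, Gfap, Socs3, Steap4 and Tgm1. Among all 32817 RefSeq windows of that length 8.29% held it. That share is per window, while list members are counted per gene, so the 2 are not the same measure. A match is a description of letters and not a bound site.

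In the accounts of genes that follow, "fell" and "rose" refer to the fit without day 14 replicate 1, with its SE and adjusted p from edgeR. Levels are CPM in the order of replicates 1 to 4, so the first of the day 14 values is the library that stands apart. The value with all libraries stands beside each, and there no gene other than Tnip2 passed. Calls were also repeated in 16 further settings without replicate 1, which included each other library left out in turn. In bulk tissue, fewer cells of a type and less RNA per cell cannot be told apart. Where levels lie below 1 CPM the fold rests on few counts, and its size is uncertain. Among the genes named below, Stat3, Cebpd, Osmr, Nes, C4b, Tnfrsf12a, Plat, Mmp12, Aplnr, Mcam and Isl1 passed in 16 of 16. Irx4, Nr4a3, Fabp5 and Jchain passed in 9 of 16, Bcl3, Pou4f2 and Fcer1g in 8, Nefh in 7 and C3 in 6. Ccl2 passed in 9 of 15. Tallies for other weak calls stand with their values.

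Signals of stressed photoreceptors and the gp130 pathway in glia included falls and no rise. Of 17 tested genes in that list 9 fell (3.72% of all tested genes did), none rose and the median log2 fold change was -1.11. With all libraries the median was -0.57 and none passed, while 4 of the 17 did not overlap between groups and were lower (1.45% over all genes). Edn2 encodes endothelin 2, which injured photoreceptors release, and was at 125, 143, 62.8 and 179 CPM at day 3 and 57.7, 52.1, 41.1 and 30.6 CPM at day 14. All day 14 libraries lay below the lowest at day 3. It fell by 1.62 on the log2 scale (SE 0.36, adjusted p = 0.0233) and stood at -1.49 (adjusted p = 0.193) with all libraries. Its control mean was 5.02 ± 0.827 CPM, and day 14 minus control was 3.06 (adjusted p = 0.0232) without replicate 1. So Edn2 at day 14 was lower than at day 3 and higher than in control.

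Stat3, the transcription factor that gp130 receptors activate, was at 183, 222, 201 and 227 CPM at day 3 and 181, 99.6, 81.9 and 98.2 CPM at day 14. Replicate 1 sat just under the day 3 range and the other day 14 libraries far below it. Stat3 fell by 1.16 on the log2 scale (SE 0.13, adjusted p = 0.000329), against -0.85 (adjusted p = 0.231) with all libraries. Cebpd, a transcription factor downstream of it, was at 86, 71.5, 109 and 109 CPM and then at 66.7, 29.6, 32.2 and 20.5 CPM. Again all day 14 libraries were below day 3, with replicate 1 nearest. Cebpd fell by 1.77 on the log2 scale (SE 0.26, adjusted p = 0.00414), against -1.34 (adjusted p = 0.24) with all libraries.

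Socs3, the feedback inhibitor whose promoter is shown above, was at 17.3, 18.7, 64.8 and 37.1 CPM at day 3 and 19.7, 6.44, 4.71 and 6.74 CPM at day 14. Only replicate 1 overlapped the day 3 range. Socs3 fell by 2.53 on the log2 scale (SE 0.38, adjusted p = 0.00525), against -1.88 (adjusted p = 0.24) with all libraries. The ligand Lif fell by 1.55 on the log2 scale (SE 0.34, adjusted p = 0.0194) and the oncostatin M receptor Osmr fell by 1.12 on the log2 scale (SE 0.21, adjusted p = 0.01). The shared receptor subunit Il6st fell by 0.66 on the log2 scale (SE 0.14, adjusted p = 0.0159), and the NF-kB cofactor Bcl3 fell by 2.38 on the log2 scale (SE 0.64, adjusted p = 0.0446). In these 4 genes the log2 fold change with all libraries was -1.21 (adjusted p = 0.412) for Lif, -0.67 (adjusted p = 0.7) for Osmr, -0.25 (adjusted p = 0.869) for Il6st and -2.2 (adjusted p = 0.271) for Bcl3.

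**Figure D4:**
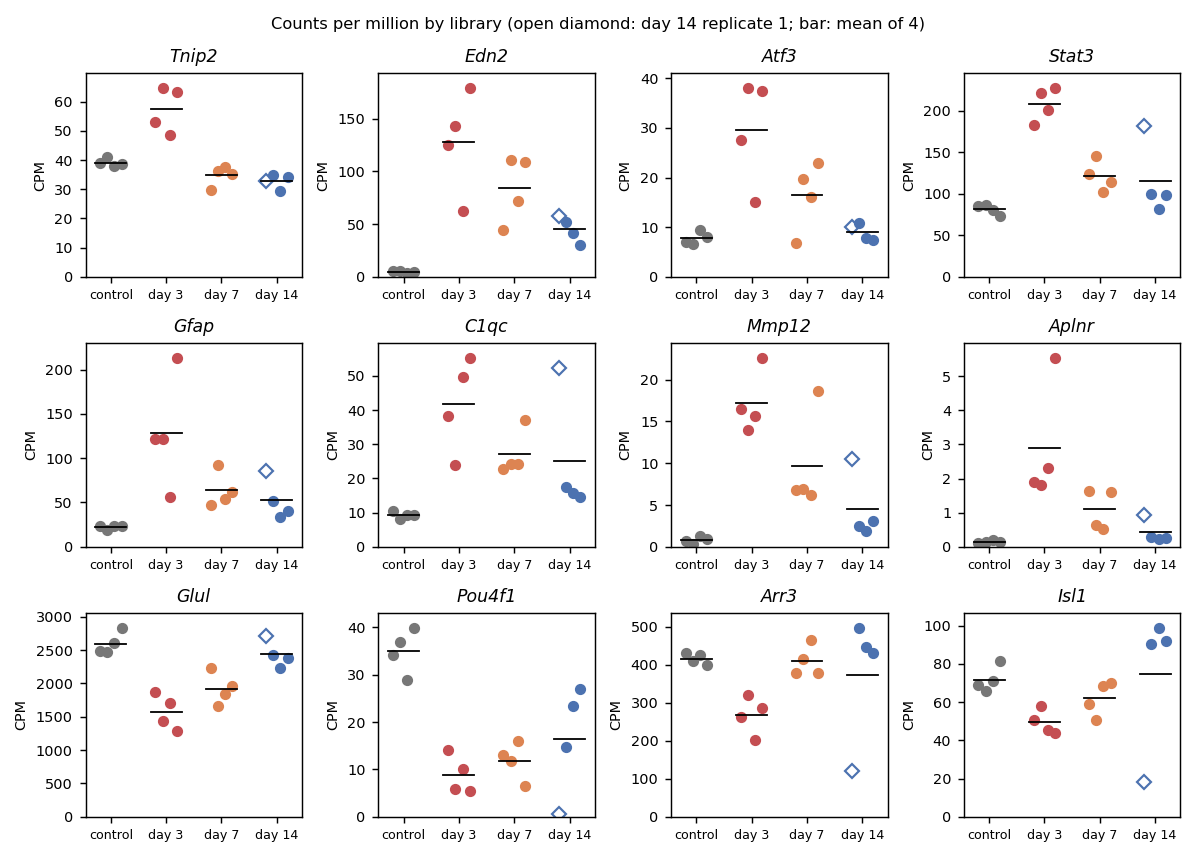
CPM (vertical axis, from 0) of 12 genes in each wild-type library by group, with bars at the mean of 4 libraries and day 14 replicate 1 as an open diamond. In Tnip2, Edn2 and Atf3 all day 14 libraries lie below all day 3 libraries, while in C1qc, Gfap, Pou4f1, Arr3 and Isl1 replicate 1 lies away from its group.

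Reactive gliosis genes, which Muller cells and astrocytes switch on after injury, also included falls and no rise. Of 20 tested, 9 fell (3.72% of all tested genes) and none rose, with a median of -1.34, against -0.50 and none passed with all libraries. None of the 20 had non-overlapping levels over all 8 libraries. The list took 0.621%, 0.942%, 0.978% and 1.12% of counts at day 3 and 2.02%, 0.528%, 0.222% and 0.388% at day 14. The lens share was likewise highest in replicate 1 and lower in the other day 14 libraries than in most at day 3. The stress and gliosis lists together also include a crystallin, Cryab. How much of the gliosis median comes from lens RNA was not tested. Gfap, the intermediate filament shown above with its promoter, was at 122, 122, 56.5 and 213 CPM at day 3 and 85.2, 52.2, 33.5 and 40.4 CPM at day 14. Day 3 replicate 3 was low in its group and day 14 replicate 1 high in its own, and they overlap. Gfap fell by 1.61 on the log2 scale (SE 0.36, adjusted p = 0.0231), against -1.28 (adjusted p = 0.361) with all libraries.

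Serpina3n, a secreted protease inhibitor of reactive glia, was at 147, 94.3, 370.1 and 317 CPM and then 197, 44.4, 51.1 and 37.8 CPM. Replicates 2 to 4 of day 14 lay below all day 3 libraries and replicate 1 did not. It fell by 2.38 on the log2 scale (SE 0.45, adjusted p = 0.0138), against -1.49 (adjusted p = 0.559). Timp1, an inhibitor of matrix metalloproteases, was at 8.93, 5.0, 18.6 and 16.3 CPM and then 6.56, 2.22, 3.08 and 1.23 CPM, with the same layout. It fell by 2.47 on the log2 scale (SE 0.47, adjusted p = 0.0121), against -1.9 (adjusted p = 0.317). The filament Nes fell by 2.06 on the log2 scale (SE 0.29, adjusted p = 0.00331; with all libraries -1.25, adjusted p = 0.556) and the complement component C4b, which has a near-identical copy that counting could split, fell by 1.69 on the log2 scale (SE 0.22, adjusted p = 0.00169; with all libraries -0.38, adjusted p = 0.904). Lcn2, an iron-binding acute phase protein, fell by 2.51 on the log2 scale (SE 0.65, adjusted p = 0.0404; with all libraries -2.08, adjusted p = 0.361), but was -1.78 (adjusted p = 0.168) once the lens and cornea scores were covariates. Its groups overlapped even without replicate 1, with 25.3 CPM in day 14 replicate 3 and 15.4 CPM in day 3 replicate 2. Lcn2 passed in 6 of 16 further settings.

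Immediate early genes, most of them transcription factors, are induced within minutes of a stimulus. Of 22 tested, 6 fell (3.72% of all tested genes) and none rose, with a median of -0.88, against -0.47 and none passed with all libraries. In 6 of the 22 the groups did not overlap over all 8 libraries and were lower at day 14, against 1.45% of all tested genes. Atf3, induced by injury and unfolded proteins, was at 27.5, 38, 15.1 and 37.5 CPM at day 3 and 9.95, 10.9, 7.72 and 7.32 CPM at day 14, with day 3 replicate 3 nearest to the day 14 values. It fell by 1.77 on the log2 scale (SE 0.38, adjusted p = 0.0183), against -1.72 (adjusted p = 0.159) with all libraries. Its control mean was 7.76 ± 1.31 CPM, inside the range of the day 14 libraries.

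Jun was at 89.5, 82.8, 134 and 84.4 CPM at day 3 and 75.9, 46.5, 57.4 and 46.5 CPM at day 14. Here the groups did not overlap although replicate 1 was the highest of day 14. It fell by 0.96 on the log2 scale (SE 0.17, adjusted p = 0.00747), against -0.79 (adjusted p = 0.231) with all libraries. Fosb was at 13.8, 10.4, 8.86 and 11.2 CPM and then 7.35, 5.5, 5.97 and 5.12 CPM, and fell by 1.0 on the log2 scale (SE 0.20, adjusted p = 0.0129), against -0.89 (adjusted p = 0.193). Fosl1 was at 6.79, 7.47, 5.62 and 7.36 CPM and then 3.46, 3.75, 2.9 and 4.73 CPM, and fell by 0.84 on the log2 scale (SE 0.19, adjusted p = 0.0221), against -0.88 (adjusted p = 0.189). In both genes the groups did not overlap, replicate 1 included. Day 3 minus control was 1.55 (adjusted p = 0.00279) for Fosb and 0.23 (adjusted p = 0.336) for Fosl1. The control mean of Fosl1 was 5.8 ± 0.705 CPM, above each day 14 library. Klf6 fell by 0.91 on the log2 scale (SE 0.18, adjusted p = 0.0136; with all libraries -0.44, adjusted p = 0.823) and Nr4a3 fell by 1.6 on the log2 scale (SE 0.39, adjusted p = 0.0275; with all libraries -1.27, adjusted p = 0.449).

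Genes that neurons induce after axon injury included 5 falls (3.72% of all tested genes) and 1 rise (3.1%), of the neuropeptide gene Cartpt, among 18 tested, with a median of -0.82, against -0.75 and none passed with all libraries. Gal, the neuropeptide galanin, was at 2.51, 5.3, 1.52 and 5.64 CPM at day 3 and 0.865, 0.468, 0.302 and 0.583 CPM at day 14. All day 14 libraries, replicate 1 included, lay below all day 3 libraries. Gal fell by 3.04 on the log2 scale (SE 0.64, adjusted p = 0.0173), against -2.76 (adjusted p = 0.193) with all libraries. Tnfrsf12a, the receptor of TWEAK, was at 25.8, 30.8, 37.2 and 41.6 CPM and then 24.9, 11, 9.11 and 8.04 CPM, without overlap, and replicate 1 was highest of its group. It fell by 1.85 on the log2 scale (SE 0.20, adjusted p = 0.000329), against -1.35 (adjusted p = 0.204).

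Plaur, the urokinase receptor, was at 2.2, 2.77, 4.43 and 2.91 CPM and then 1.23, 0.585, 1.03 and 0.324 CPM, again without overlap. It fell by 2.23 on the log2 scale (SE 0.50, adjusted p = 0.0212), against -1.96 (adjusted p = 0.24). Sox11, a transcription factor of regenerating neurons, fell by 1.95 on the log2 scale (SE 0.51, adjusted p = 0.0351; with all libraries -2.01, adjusted p = 0.215), although day 3 replicate 3 lay within the day 14 range. It passed in 8 of 16 further settings, with an adjusted p of up to 0.127 in the others. Heat shock and integrated stress response genes moved less, with 3 falls among 18 tested (3.72% of all tested genes) and a median of -0.33, against -0.25 with all libraries. The chaperone Hspa5 fell by 0.69 on the log2 scale (SE 0.15, adjusted p = 0.0192; with all libraries -0.55, adjusted p = 0.449).

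Monocytes and macrophages enter the lesion from the blood and clear debris. Of 26 tested, 8 fell (3.72% of all tested genes) and none rose, the median was -1.37, and all 26 had a log2 fold change below 0. With all libraries the median was -0.70 and none passed. Fcgr1, a high-affinity antibody receptor of inflammatory monocytes, was at 3.42, 2.29, 7.21 and 4.39 CPM at day 3 and 2.88, 0.937, 1.03 and 0.842 CPM at day 14. Cd68, a lysosomal protein of phagocytes, was at 18.8, 11, 28.8 and 22.7 CPM and then 24.6, 6.2, 9.47 and 7.71 CPM. In both genes replicates 2 to 4 of day 14 were below all day 3 libraries, and replicate 1 was inside the day 3 range. Fcgr1 fell by 2.19 on the log2 scale (SE 0.41, adjusted p = 0.01), against -1.61 (adjusted p = 0.361) with all libraries. Cd68 fell by 1.38 on the log2 scale (SE 0.28, adjusted p = 0.0161), against -0.76 (adjusted p = 0.78). The signalling adaptors Tyrobp and Fcer1g, which pair with such receptors, followed: Tyrobp fell by 1.26 on the log2 scale (SE 0.28, adjusted p = 0.0195; with all libraries -0.45, adjusted p = 0.867) and Fcer1g fell by 1.35 on the log2 scale (SE 0.31, adjusted p = 0.0231; with all libraries -0.82, adjusted p = 0.736). Siglec1, a sialic acid receptor of macrophages, fell by 3.03 on the log2 scale (SE 0.59, adjusted p = 0.0128; with all libraries -1.17, adjusted p = 0.823). In replicate 1 Siglec1 lay inside the day 3 range.

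Genes of lipid-handling phagocytes included 8 falls and no rise among 18 (3.72% of all tested genes), with a median of -0.70, against -0.22 and none passed with all libraries. Spp1, osteopontin, was at 109, 52.9, 98.3 and 175 CPM at day 3 and 78, 31.1, 27.9 and 27.8 CPM at day 14. Day 14 replicates 2 to 4 lay close together, just above the control mean of 24.6 ± 2.09 CPM, and replicate 1 inside the day 3 range. It fell by 1.91 on the log2 scale (SE 0.37, adjusted p = 0.0157), against -1.4 (adjusted p = 0.396) with all libraries. The fatty acid carrier Fabp5, which lens and surface epithelia also express, fell by 2.07 on the log2 scale (SE 0.47, adjusted p = 0.0251; with all libraries -0.66, adjusted p = 0.872), and was -1.18 (adjusted p = 0.125) once the lens and cornea scores were covariates. Homeostatic microglia genes gave 3 falls among 12 (3.72% of all), and 9 of the 12 were below 0. Their median was -0.75, against -0.38 with all libraries. Of the falls, Olfml3 fell by 2.4 on the log2 scale (SE 0.53, adjusted p = 0.0245; with all libraries -0.53, adjusted p = 0.905). Olfml3 was at 291.4 CPM in day 14 replicate 1, far above the rest of its group, and which cells or tissue its RNA came from was not tested.

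Chemokines, the attractants of these cells, gave 5 falls and no rise among 18 tested (3.72% of all tested genes), with a median of -1.28, against -0.69 with all libraries. Ccl12, a monocyte attractant, was at 2.02, 2.23, 2.45 and 2.14 CPM at day 3 and 1.44, 0, 0.362 and 0.454 CPM at day 14. Cxcl10, an interferon-induced attractant of lymphocytes, was at 2.14, 8.14, 4.1 and 5.94 CPM and then 1.73, 0.468, 0.724 and 0.778 CPM. In both, no day 14 library reached the lowest day 3 value. Ccl12 fell by 3.01 on the log2 scale (SE 0.50, adjusted p = 0.00634), against -2.0 (adjusted p = 0.405) with all libraries, and Cxcl10 fell by 2.94 on the log2 scale (SE 0.72, adjusted p = 0.0287), against -2.47 (adjusted p = 0.361). Ccl2 fell by 2.7 on the log2 scale (SE 0.62, adjusted p = 0.0229; with all libraries -1.62, adjusted p = 0.672), and was -1.52 (adjusted p = 0.24) once those scores were covariates. It was at 0.351, 0.483 and 0.324 CPM in day 14 replicates 2 to 4. At such levels the folds of Ccl12, Cxcl10 and Ccl2 rest on few counts. The cytokine and inflammasome list had 2 falls among 17 (3.72% of all).

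Among neutrophil genes, day 3 replicate 3, the library with the largest share of ocular surface RNA at day 3, held the highest values. S100a8, a calcium-binding protein of neutrophils that stressed epithelium also makes, was at 1.22, 0.0603, 24.7 and 0.891 CPM at day 3 and 0.216, 0, 0.0603 and 0 CPM at day 14. That replicate was far above the other 7 libraries. It was not called (adjusted p = 0.0516), and no fold is given because day 14 replicates 2 to 4 held 1 count in all. Of 7 tested neutrophil genes, Csf3r fell and Mmp9 rose, where 3.72% and 3.1% of all genes did. Csf3r, the G-CSF receptor, fell by 2.2 on the log2 scale (SE 0.58, adjusted p = 0.0356; with all libraries -1.72, adjusted p = 0.511), passed in 9 of 16 further settings and was -1.31 (adjusted p = 0.258) with the covariates. The protease Mmp9 rose by 0.82 on the log2 scale (SE 0.18, adjusted p = 0.0177; with all libraries 0.48, adjusted p = 0.85), and its control mean was 16.8 ± 2.39 CPM. NK, T, B and dendritic or mast cell lists had 3, 5, 6 and 9 tested genes. Among them 1 passed, Jchain, near the 3.1% of all tested genes that rose. This gene, the joining chain of antibodies, rose by 0.74 on the log2 scale (SE 0.18, adjusted p = 0.0252; with all libraries 0.52, adjusted p = 0.736).

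Complement genes gave 10 falls and no rise among 18 tested (3.72% of all tested genes), with a median of -1.18, against -0.47 and none passed with all libraries. C1qc encodes a chain of C1q, which starts the classical pathway and is made by microglia and macrophages. It was at 38.3, 23.9, 49.8 and 55.2 CPM at day 3 and 52.3, 17.6, 15.7 and 14.5 CPM at day 14. Replicate 1 was in the upper part of the day 3 range and the other day 14 libraries below it. C1qc fell by 1.39 on the log2 scale (SE 0.24, adjusted p = 0.00747), against -0.74 (adjusted p = 0.765) with all libraries. Its partner chains C1qa and C1qb moved with it: C1qa fell by 1.19 on the log2 scale (SE 0.24, adjusted p = 0.0133; with all libraries -0.52, adjusted p = 0.837) and C1qb fell by 1.17 on the log2 scale (SE 0.23, adjusted p = 0.0128; with all libraries -0.50, adjusted p = 0.846).

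C5ar1, the receptor of the fragment C5a, was at 1.59, 1.39, 3.9 and 3.38 CPM at day 3 and 1.37, 0.468, 0.603 and 0.324 CPM at day 14. It was the complement gene whose groups did not overlap over all 8 libraries. C5ar1 fell by 2.43 on the log2 scale (SE 0.47, adjusted p = 0.0123), against -1.9 (adjusted p = 0.271) with all libraries. The receptor C3ar1 fell by 2.22 on the log2 scale (SE 0.47, adjusted p = 0.0173; with all libraries -1.02, adjusted p = 0.818) and the central component C3 fell by 2.82 on the log2 scale (SE 0.69, adjusted p = 0.0319; with all libraries -1.68, adjusted p = 0.68). In the fit with the 2 covariates C3 was -1.82 (adjusted p = 0.201) and C3ar1 -2.05 (adjusted p = 0.041).

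Interferon genes had log2 fold changes below 0 in 22 of 22 of the type I list and 26 of 26 of the antigen presentation and interferon gamma list. Falls numbered 4 and 5 (3.72% of all tested genes), with medians of -1.51 and -1.0, against -0.85 and -0.56 with all libraries. Mx2, an antiviral GTPase, was at 3.73, 7.96, 10.6 and 5.46 CPM at day 3 and 4.69, 1.4, 1.51 and 1.49 CPM at day 14. Bst2, a membrane tether of viruses, was at 39.7, 28.6, 81.2 and 42.5 CPM and then 59.3, 14, 16.3 and 11.8 CPM. Replicates 2 to 4 of day 14 lay below all day 3 libraries in both, and replicate 1 lay inside the day 3 range. Mx2 fell by 2.23 on the log2 scale (SE 0.39, adjusted p = 0.00757) and Bst2 fell by 1.77 on the log2 scale (SE 0.29, adjusted p = 0.00617), against -1.62 (adjusted p = 0.361) and -0.92 (adjusted p = 0.745) with all libraries. The signal transducer Irf9 fell by 1.18 on the log2 scale (SE 0.24, adjusted p = 0.0168; with all libraries -0.84, adjusted p = 0.536).

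Cell division genes had a median of -1.22 and were below 0 in 34 of 35, yet only Aurkb passed, a share below the 3.72% of all tested genes. With all libraries the median was -0.92. This mitotic kinase was at 4.59, 4.64, 18.1 and 1.9 CPM at day 3 and 4.4, 1.46, 1.09 and 1.17 CPM at day 14. Day 3 replicate 3 was far above the rest of its group. Aurkb fell by 2.54 on the log2 scale (SE 0.70, adjusted p = 0.0449; with all libraries -1.86, adjusted p = 0.577) and passed in 8 of 16 further settings.

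Matrix genes build the scar of a lesion. Of 33 tested, 9 fell (3.72% of all tested genes) and none rose, with a median of -0.79, against -0.24 and none passed with all libraries. Lox, the enzyme that cross-links collagen, was at 11.1, 6.09, 14.4 and 18.6 CPM at day 3 and 6.42, 2.34, 2.41 and 2.46 CPM at day 14. Replicate 1 lay above the lowest day 3 library, and the other day 14 libraries below it. Lox fell by 2.38 on the log2 scale (SE 0.45, adjusted p = 0.0111), against -1.89 (adjusted p = 0.262) with all libraries. Its control mean was 0.684 ± 0.279 CPM, and day 14 minus control was 1.82 (adjusted p = 0.0804) without replicate 1.

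In Sparc and Acta2, replicate 1 was the highest of all 8 libraries and the other day 14 libraries were the lowest. Sparc, a collagen-binding glycoprotein that the lens capsule also contains, was at 698, 897, 855 and 1226 CPM at day 3 and 2991, 549, 252 and 324 CPM at day 14. It fell by 1.29 on the log2 scale (SE 0.35, adjusted p = 0.0436), but stood at 0.16 (adjusted p = 0.966) with all libraries and passed in 7 of 16 further settings. Acta2, the smooth muscle actin of myofibroblasts and pericytes, was at 72.6, 67.6, 85 and 101 CPM and then 236, 32.6, 25.2 and 31.8 CPM. It fell by 1.45 on the log2 scale (SE 0.28, adjusted p = 0.0139), against -0.01 (adjusted p = 0.998) with all libraries. Fibroblast genes gave 3 falls among 12 and TGF-beta and BMP genes 8 among 20 (3.72% of all tested genes). Their medians were -1.12 and -0.57, against -0.10 and -0.04 with all libraries.

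Proteases that cut matrix and their inhibitors gave 6 falls and no rise among 16 (3.72% of all tested genes), with a median of -1.17, against -0.50 with all libraries. Plat, tissue plasminogen activator, was at 26.1, 22.7, 27.7 and 29.5 CPM at day 3 and 18.6, 9.19, 8.75 and 8.49 CPM at day 14. Mmp12, the elastase of macrophages, was at 16.5, 13.9, 15.7 and 22.6 CPM and then 10.5, 2.46, 1.87 and 3.11 CPM. Adamts1, a versican-cleaving protease, was at 37.8, 39.1, 43.8 and 41.4 CPM and then 29.8, 20.1, 14.5 and 14.9 CPM. In all 3 genes the groups did not overlap over the 8 libraries, and replicate 1 was the highest of day 14. Plat fell by 1.58 on the log2 scale (SE 0.14, adjusted p = 9.81e-05), against -1.24 (adjusted p = 0.151) with all libraries. Mmp12 fell by 2.79 on the log2 scale (SE 0.43, adjusted p = 0.00536), against -1.95 (adjusted p = 0.349). Adamts1 fell by 1.29 on the log2 scale (SE 0.24, adjusted p = 0.011), against -1.03 (adjusted p = 0.292).

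Endothelial genes gave 6 falls and no rise among 20 (3.72% of all tested genes), with a median of -1.16, against -0.49 and none passed with all libraries. Cdh5, the cadherin of endothelial junctions, was at 14.1, 11.6, 10.8 and 15.4 CPM at day 3 and 15.9, 5.5, 3.98 and 2.2 CPM at day 14. Replicate 1 was above all day 3 libraries and the other 3 were below them all. Cdh5 fell by 1.73 on the log2 scale (SE 0.37, adjusted p = 0.0171), against -0.92 (adjusted p = 0.784) with all libraries. Tie1, a vessel receptor, fell by 1.66 on the log2 scale (SE 0.42, adjusted p = 0.0314; with all libraries -0.83, adjusted p = 0.821). The main VEGF receptor Kdr was -0.45 (adjusted p = 0.28; with all libraries -0.46, adjusted p = 0.783) and was not called. In the fit with the 2 covariates this turned round, with Kdr at -0.69 (adjusted p = 0.0262) and Tie1 at -1.63 (adjusted p = 0.0907). Of 16 further settings Tie1 passed in 8 and Kdr in 1.

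Angiogenic factors and tip cell genes gave 5 falls among 21 (3.72% of all tested genes) with a median of -0.92, against -0.38 with all libraries. Aplnr, the apelin receptor of sprouting endothelium, was at 1.9, 1.81, 2.31 and 5.52 CPM at day 3 and 0.937, 0.293, 0.241 and 0.259 CPM at day 14. The groups did not overlap over the 8 libraries. Aplnr fell by 3.41 on the log2 scale (SE 0.55, adjusted p = 0.00555), against -2.75 (adjusted p = 0.159) with all libraries. Its control mean was 0.144 ± 0.0313 CPM. Lrg1, a vessel growth glycoprotein, fell by 2.55 on the log2 scale (SE 0.53, adjusted p = 0.0162; with all libraries -1.27, adjusted p = 0.784). Glycam1, a mucin of high endothelial venules, fell by 2.8 on the log2 scale (SE 0.60, adjusted p = 0.0178; with all libraries -1.31, adjusted p = 0.803). In replicate 1 Glycam1 was above 3 of the 4 day 3 libraries. Pericyte and smooth muscle genes gave 3 falls among 13 (3.72% of all). Of these Mcam, CD146 of pericytes and endothelium, was at 15, 19.1, 13.5 and 24.9 CPM at day 3 and 15, 7.79, 3.86 and 4.73 CPM at day 14. Replicate 1 lay inside the day 3 range and the other 3 below it. Mcam fell by 1.73 on the log2 scale (SE 0.28, adjusted p = 0.00608), against -1.21 (adjusted p = 0.434) with all libraries.

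Neuronal genes of the retina were described in 5 lists, none of which held a fall. Called rises numbered 1 of 24 for rods, 3 of 13 for cones, 7 of 15 for bipolar cells, 4 of 21 for amacrine and horizontal cells and 4 of 15 for ganglion cells, where 3.1% of all tested genes rose. The rod count is near that share. Their medians were 0.44, 0.53, 0.46, 0.51 and 0.69, against 0.0086 over all genes. With all libraries the medians were 0.17, 0.24, 0.20, 0.24 and 0.30, and none passed. None of the genes in these lists had non-overlapping levels over the 8 libraries. Replicate 1, with the largest lens share, was the lowest of the 8 libraries in each member of these lists named below, and in the other day 14 libraries the lens share was lower than at day 3.

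Pdc, phosducin of rods, was at 1372, 1341, 830.2 and 1265 CPM at day 3 and 572, 2202, 2435 and 2273 CPM at day 14. Arr3, cone arrestin, was at 262, 321, 201 and 286 CPM and then 119.8, 496, 447 and 431 CPM. In both, replicates 2 to 4 of day 14 were above all day 3 libraries and replicate 1 below them. Pdc rose by 0.94 on the log2 scale (SE 0.21, adjusted p = 0.0204), against 0.64 (adjusted p = 0.793) with all libraries, and was 0.63 (adjusted p = 0.0562) in the fit with the 2 covariates. Arr3 rose by 0.78 on the log2 scale (SE 0.13, adjusted p = 0.00706), against 0.48 (adjusted p = 0.822), and was 0.67 (adjusted p = 0.00834) with the covariates. The green opsin Opn1mw rose by 0.77 on the log2 scale (SE 0.16, adjusted p = 0.0159; with all libraries 0.49, adjusted p = 0.821).

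Isl1, a transcription factor of ON bipolar and other inner neurons, was at 50.8, 58.1, 45.6 and 43.7 CPM at day 3 and 18.2, 90.2, 98.6 and 92 CPM at day 14. Replicate 1 was below all day 3 libraries and the other 3 were above them. Isl1 rose by 0.92 on the log2 scale (SE 0.13, adjusted p = 0.00255), against 0.59 (adjusted p = 0.808) with all libraries. The bipolar factor Vsx1 rose by 1.0 on the log2 scale (SE 0.18, adjusted p = 0.00747; with all libraries 0.63, adjusted p = 0.843). Calb2, the calcium-binding protein calretinin of amacrine and ganglion cells, was at 155, 108, 127 and 88.8 CPM and then 20.1, 169, 332 and 242 CPM. It rose by 1.06 on the log2 scale (SE 0.24, adjusted p = 0.0224), against 0.68 (adjusted p = 0.846). The day 14 values of Calb2 spread widely, from the lowest of the 8 libraries to the highest.

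Ganglion cells send the axons of the optic nerve. Pou4f1, a transcription factor that marks them, was at 14.2, 5.85, 9.99 and 5.46 CPM at day 3 and 0.649, 14.6, 23.3 and 27 CPM at day 14. Isl2, another factor of these cells, was at 2.32, 1.45, 2.71 and 0.891 CPM and then 0.361, 3.22, 7.36 and 4.73 CPM. Replicate 1 was the lowest of the 8 libraries in both and the remaining day 14 libraries were the highest. Pou4f1 rose by 1.29 on the log2 scale (SE 0.34, adjusted p = 0.0363), against 0.89 (adjusted p = 0.835) with all libraries, and passed in 8 of 16 further settings. Isl2 rose by 1.48 on the log2 scale (SE 0.37, adjusted p = 0.0291), against 1.09 (adjusted p = 0.784). Pou4f2 rose by 1.59 on the log2 scale (SE 0.44, adjusted p = 0.0454; with all libraries 1.18, adjusted p = 0.821) and the heavy neurofilament Nefh rose by 0.91 on the log2 scale (SE 0.25, adjusted p = 0.0466; with all libraries 0.57, adjusted p = 0.835). The Pou4f1 control mean was 34.9 ± 4.69 CPM, above each day 14 library.

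By the rule for named genes, the largest called rises with levels above all day 3 libraries in replicates 2 to 4 were those of Irx4 and Shisal2b. Irx4, a homeobox factor of ganglion cells, rose by 1.68 on the log2 scale (SE 0.46, adjusted p = 0.0418; with all libraries 1.28, adjusted p = 0.784). Shisal2b was at 4.16, 3.86, 2.71 and 2.02 CPM at day 3 and 3.17, 9.07, 12.8 and 8.23 CPM at day 14, and rose by 1.66 on the log2 scale (SE 0.25, adjusted p = 0.00363), against 1.38 (adjusted p = 0.25) with all libraries. Replicate 1 lay within the day 3 range. The serotonin receptor Htr1b rose by 1.43 on the log2 scale (SE 0.34, adjusted p = 0.026; with all libraries 1.17, adjusted p = 0.554). The largest called fall by the same rule was that of Cryge, a lens crystallin with a near-identical copy, at -6.28 (adjusted p = 0.0404; with all libraries -4.56, adjusted p = 0.43), which passed in 4 of 15 further settings.

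Muller glia genes gave 1 rise and 2 falls among 14 (3.1% and 3.72% of all), with a median of -0.07, against 0.09 with all libraries. Glul, glutamine synthetase, which recycles transmitter glutamate, was at 1868, 1429.9, 1699.5 and 1289 CPM at day 3 and 2717, 2427, 2228 and 2383 CPM at day 14. All day 14 libraries, replicate 1 included, were above all day 3 libraries. Glul rose by 0.58 on the log2 scale (SE 0.14, adjusted p = 0.0254), against 0.63 (adjusted p = 0.261) with all libraries. Crym, a thyroid hormone binding protein, was at 88.5, 116, 86.6 and 294 CPM and then 67.6, 39.7, 57.8 and 54.4 CPM, without overlap. It fell by 1.53 on the log2 scale (SE 0.37, adjusted p = 0.0305), against -1.41 (adjusted p = 0.215). Day 3 minus control was -0.73 (adjusted p = 0.0156) for Glul and 2.31 (adjusted p = 0.00426) for Crym.

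Pigment epithelium genes showed 1 fall and no rise among 15, a share near the 3.72% of all tested genes. Rpe65, the isomerase of the visual cycle, was at 53, 67.6, 98.9 and 104 CPM at day 3 and 76.8, 157, 82.6 and 146 CPM at day 14. Lrat, which esterifies retinol in the same cycle, was at 22.6, 32.4, 45.1 and 38.7 CPM and then 41.4, 71.9, 25.9 and 73.5 CPM. The groups overlapped in both. The changes were 0.67 (adjusted p = 0.206; with all libraries 0.51, adjusted p = 0.821) for Rpe65 and 0.72 (adjusted p = 0.229; with all libraries 0.62, adjusted p = 0.793) for Lrat, and neither passed in any of 16 further settings. Control means were 222 ± 48.2 and 140.4 ± 41.3 CPM, above each day 14 library. Day 14 minus control without replicate 1 was -0.77 (adjusted p = 0.218) and -1.28 (adjusted p = 0.105), also not called. A change in either direction was not detectable for these genes at this spread. In the myelin list Cnp, an enzyme of oligodendrocytes that other glia also express, was at 24.4, 23.5, 23.3 and 32.7 CPM at day 3 and 18.5, 14.1, 14.8 and 15.4 CPM at day 14. The groups did not overlap, and Cnp fell by 0.81 on the log2 scale (SE 0.16, adjusted p = 0.0132), against -0.73 (adjusted p = 0.193) with all libraries.

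**Figure D5:**
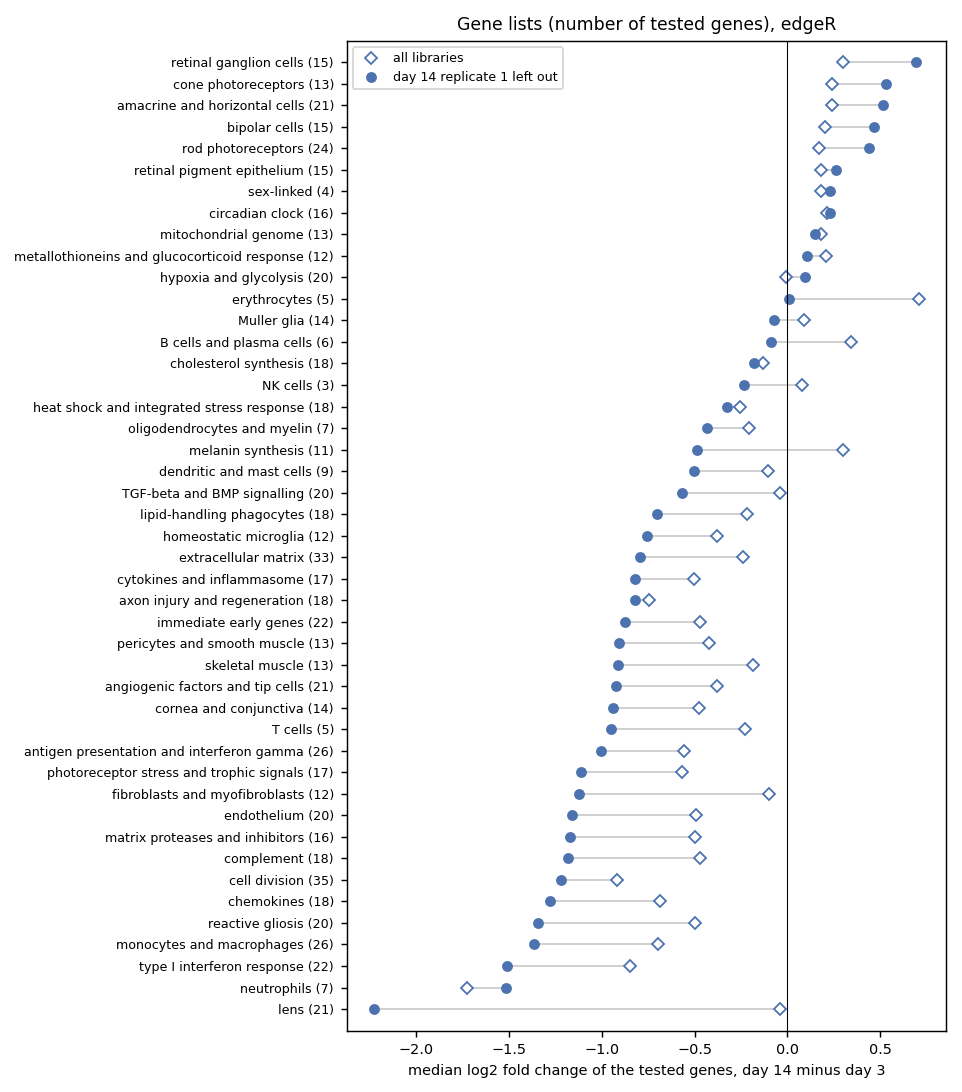
Median log2 fold change (horizontal axis, day 14 minus day 3) of the tested genes of each list, with all libraries (open diamonds) and without day 14 replicate 1 (filled circles). Gliosis, immediate early, macrophage, complement, matrix and endothelial lists lie below 0 in both fits and the 5 retinal neuron lists above 0, while the lens list moves from -0.04 to -2.23 when replicate 1 is left out.

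Other lists showed few calls without replicate 1, where 3.72% of all tested genes fell and 3.1% rose. Medians with all libraries stand in brackets. The lens list had a median of -2.23 (-0.04) and 1 fall among 21, that of Cryge, which is near the share over all genes. The cornea and conjunctiva list had -0.94 (-0.47) and none among 14. Skeletal muscle genes had -0.91 (-0.18) and none among 13. Melanin synthesis genes had -0.49 and 1 fall among 11, that of the transporter Slc45a2, while their median with all libraries was of the opposite sign, at 0.30. Hypoxia and glycolysis genes had 0.09 (-0.0072) and 2 falls among 20, of Car9 and the glucose transporter Slc2a1. None passed among 18 cholesterol synthesis genes, 13 genes of the mitochondrial genome, 5 erythrocyte genes and 4 sex-linked genes.

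Set beside control, edgeR called 2749 genes at day 3 (14.7% of those tested), 1300 higher (6.97%) and 1449 lower (7.77%). At day 14 it called 51 (0.273%), 6 higher (0.0322%) and 45 lower (0.241%). Without replicate 1 it called 78 (0.412%), 18 higher (0.0951%) and 60 lower (0.317%). These comparisons share libraries with the one described here, so values are only given side by side. The day 14 list medians are given without replicate 1 only, while the day 3 medians come from the fit with all libraries. Single genes stood further from control with replicate 1 kept. In Timp1, Gfap, Lcn2 and Nes, the gliosis genes lowest in p, day 14 minus control was 1.48, 1.23, 2.10 and 0.66 with all libraries. Without replicate 1 it was 0.92, 0.91, 1.68 and -0.14. For the photoreceptor stress list the median against control was 1.15 at day 3 and 0.16 at day 14 without replicate 1, and for gliosis 1.91 and 0.51. Monocytes and macrophages had 2.07 and 0.84, complement 1.83 and 0.39, and matrix 1.01 and 0.10. Ganglion cell genes had -1.11 and -0.45, and pigment epithelium -0.50 and -0.31. The lens list itself had 3.51 and 1.46. Its part in the other values cannot be told apart from day after laser without replicate 1, as given above. With the covariates and without replicate 1, 1516 genes were called, 755 higher and 761 lower, and 759 of them were among the 1290. Of the named genes called without replicate 1, 16 did not pass in that fit (adjusted p from 0.0546 to 0.454): Pou4f1, Pou4f2, Nefh, Sparc, Pdc, Calb2, Lcn2, Nr4a3, Fabp5, Tyrobp, Fcer1g, Ccl2, C3, Csf3r, Tie1 and Cryge. In each the direction was the same as without the covariates.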

How the data were processed

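RNA was sequenced from the retina and choroid of 22 mouse libraries, of which 8 were compared and 16 wild-type libraries entered the fit. The authors deposited counts per gene, made with featureCounts 1.5.0-p3 on mm10 per the submitters' processing notes. For aligner, annotation and strandedness, nothing was given in the sources used here. The table's 16 columns of FPKM were not used.

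Counts were tested with edgeR 4.0.16 in R 4.3.3: filterByExpr (minimum count 10, total 15), TMM factors, 1 mean per group, a robust quasi-likelihood fit and Benjamini-Hochberg adjustment at 0.05. CPM values use library totals multiplied by the TMM factors. limma 3.58.1 (voom) and DESeq2 1.42.0 were alternatives. The procedure was tested on simulated counts with known changes at day 14. No simulated library stood apart from its group, so that test does not cover the problem of day 14 replicate 1. No library pair in a group agreed within sampling noise (at least 10.2 chi-square per gene). Shares of 15055478 to 16848254 counts per library carry a counting error far below the spread between libraries.

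The naming rule took called genes averaging 1 CPM or more whose groups did not overlap (the 12 largest changes each way) and, from each list, the 4 tested members lowest in p. Other list members were added, and the genes named without day 14 replicate 1, the analysis without it and the further settings were chosen after seeing the data. The comparison and its 45 lists (793 of 795 symbols matched) were chosen with earlier results of these data known. Promoter windows are from RefSeq, GRCm38.p6. Some items are not reported here.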

Additional observations from a re-analysis of the deposited data

Results flagged for a closer look

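Among 186 groups of 4 libraries (the genes named here and 6 list shares, at day 3 and at day 14), 45 held a library whose gap to the nearest other was above Dixon's 95% critical value for 4 samples. Chance flags about 1 in 20 groups, but genes are not independent of each other. Many were also named through the fit without day 14 replicate 1, which favours genes in which that replicate departs from its group. The number of flags therefore cannot be set against chance and is no independent evidence about that replicate. Of these, 34 were day 14 replicate 1, 7 day 3 replicate 3 and 4 day 3 replicate 4.

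Day 14 replicate 1 was highest of its group for the share of the lens list, at 13.27% of counts, and lowest for that of the rod list, at 1.762%. Among glial and stress genes it was highest for Socs3 at 19.68 CPM, Serpina3n at 197.2, Nes at 19.25, C4b at 303.4, Klf6 at 75.85 and Fkbp5 at 118.5. Among genes of phagocytes and complement it was highest for Fcgr1 at 2.884 CPM, Spp1 at 78.01, Fabp5 at 713.5, Tyrobp at 22.14, Olfml3 at 291.4, Siglec1 at 3.749, C1qa at 67.05, C1qb at 60.42, C1qc at 52.27, C3 at 41.1 and C3ar1 at 6.85. It was also highest for the attractant Ccl2 at 2.235 CPM, the interferon genes Mx2 at 4.687 and Bst2 at 59.27, and the mitotic kinase Aurkb at 4.398. Among matrix and vessel genes it was highest for Lox at 6.417 CPM, Plat at 18.6, Mmp12 at 10.45, Sparc at 2991.0, Acta2 at 235.7, Aplnr at 0.9373, Tie1 at 20.62, Lrg1 at 6.777 and Glycam1 at 7.426. It was lowest for the neuronal genes Pdc at 571.8 CPM and Isl1 at 18.17.

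Day 3 replicate 3 was highest of its group for Jun at 133.7 CPM, S100a8 at 24.67, Aurkb at 18.12, Irf9 at 105.0, Csf3r at 20.17 and the epithelial keratin Krt16 at 1514.0. It was lowest for the share of the rod list, at 3.552% of counts. Day 3 replicate 4 was highest of its group for Aplnr at 5.522 CPM, Crym at 293.8, Cnp at 32.66 and Nes at 28.74.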

How the results depend on the processing

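With all libraries, the edgeR count of 1 changed gene (0 higher, 1 lower) became 4, all lower, with library totals in place of TMM and 2, both lower, with no filter or a stricter filter on low counts. It became 3, all lower, with limma voom. It was 0 with only the 8 compared libraries (618 genes at an unadjusted p under 0.05), with control replicate 4 out (1159), with the replicate number as a block (1208) and with lens and cornea genes taken out (1241). DESeq2 called 115 genes, 32 higher and 83 lower, and lens and cornea scores as covariates gave 116, 29 higher and 87 lower. Chosen after seeing the data, limma voom with library quality weights called 4485, 2137 higher and 2348 lower, and omitting 3 libraries at once (day 3 replicate 3, day 7 replicate 2, day 14 replicate 1) left 683, 278 higher and 405 lower. Leaving out 1 library at a time gave 0 to 1290 changed genes, 0 to 586 higher and 0 to 704 lower, with 13 without day 3 replicate 3.

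Without day 14 replicate 1, DESeq2 called 2371 genes, 996 higher and 1375 lower. The 7 compared libraries alone gave 124, 26 higher and 98 lower, and the replicate block 377, 126 higher and 251 lower. Leaving out a further library gave 116 to 1436 changed genes, 46 to 649 higher and 70 to 787 lower, with 116 without day 14 replicate 4, 307 without day 14 replicate 3, 525 without day 3 replicate 4, 576 without day 3 replicate 3 and 855 without day 14 replicate 2. Library totals gave 1271, with the balance turned to 676 higher and 595 lower, and without day 3 replicate 1 it was 565 higher and 563 lower. RLE factors gave 1309, a stricter filter 1321, voom 1257 and lens and cornea genes out 1322. The cause of these differences was not tested.

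Replicate numbers did not pair the libraries (correlations of deviations -0.22, 0.47, 0.04 and 0.10 for numbers 1 to 4). Sparc, at 0.16 with all libraries, was -0.26 with the replicate block, -0.55 with voom, -1.17 with quality weights, -1.33 with the 3 libraries out and from -1.29 (without day 14 replicate 1) to 0.49 with 1 library out. Acta2, at -0.01, was 0.050 with the covariates, 0.0059 with lens and cornea genes out, and from -1.45 (without day 14 replicate 1) to 0.29 with 1 library out. Over all named genes and settings, against the fit with all libraries, 12 values changed sign. In 1616 the direction and the side of the threshold stayed the same, nearly all of them not called, while 272 passed the threshold newly and 10 no longer did.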

Other observations

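Genes of the circadian clock were looked at as a list. In 4 of 16 the levels did not overlap over all 8 libraries and were higher at day 14, against 1.4% of all genes tested for higher levels. Without day 14 replicate 1 the edgeR fit called 3 rises, where 3.1% of all tested genes rose, and no fall: Per3, Cry1 and Cry2. Per3, a clock-driven gene, was at 117, 124, 113 and 98 CPM in day 3 replicates 1 to 4 and at 205, 167, 135 and 165 CPM at day 14. All day 14 libraries lay above all day 3 libraries, and replicate 1 was the highest. Per3 rose by 0.47 on the log2 scale (SE 0.11, adjusted p = 0.0265), against 0.57 (adjusted p = 0.193) with all libraries, and day 3 minus control was -0.60 (adjusted p = 0.0145). It passed in 10 of 16 further settings, with an adjusted p of up to 0.12 in the others. No source used here gives the hour at which eyes were taken, so time of day and days after laser cannot be told apart.

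Of 12 metallothionein and glucocorticoid response genes none passed with or without replicate 1. Zbtb16, which glucocorticoids induce, was at 4.04, 2.11, 2.98 and 2.26 CPM at day 3 and 17.7, 7.67, 1.51 and 5.44 CPM at day 14, with a change of 0.78 (adjusted p = 0.222; with all libraries 1.5, adjusted p = 0.536). Its day 14 libraries ran from below to above all day 3 libraries. Fkbp5, a chaperone of the glucocorticoid receptor, was at 36.3, 30.0, 53.7 and 27 CPM and then 118, 49.9, 42.5 and 49 CPM, with a change of 0.36 (adjusted p = 0.217; with all libraries 0.82, adjusted p = 0.557) and replicate 1 the highest.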
